A study of Mus musculus with 6 samples.

Results

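The mRNAs of 10 adhesion genes were followed in mouse dermal fibroblasts with and without stabilized β-catenin. They are 7 cadherins (Cdh1, Cdh2, Cdh3, Cdh4, Cdh5, Cdh11 and Cdh13) and 3 catenin partners (Ctnna1, Ctnnd1 and Jup), taken by name from a table of 41126 genes, and 9 of the 10 had enough fragments to be among the 15462 genes tested. RNA-seq was performed on 6 primary cultures of ventral dermal fibroblasts from mice of mixed CD1 and C57Bl6 strain at postnatal day 4. The 3 GOF cultures received Adenovirus-Cre, which removes exon 3 from a conditional Ctnnb1 allele (Ctnnb1 Δex3/+), whereas the 3 control cultures received Adenovirus-GFP. Virus and the state of the Ctnnb1 allele thus changed together between the groups, and their effects cannot be told apart. The sample labels give the controls as wild type, while the study's methods describe the same transgene in them, and the treatment text of the labels names Adenovirus-Cre at 366 to 500 MOI for 6 h for every culture. The number that opens each sample title was read as an animal number, which gives 4 animals for the 6 cultures. On that reading, 1 animal gave Control replicate 0 and GOF replicate 2, and another gave Control replicate 2 and GOF replicate 0. Cultures of the same animal share its inherited genotype, so the controls of these animals would carry the same Ctnnb1 allele as their GOF partners before virus. The p-values below measure the spread between these cultures. Except where the animal is named as a block, the tests took all 6 cultures as independent and had no term for the shared animals.

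A cadherin is a membrane protein whose outer part binds, with calcium, to a cadherin on the next cell. Inside the cell, the tail of a classical cadherin is held by β-catenin or by plakoglobin (the product of Jup), α-catenin (Ctnna1) joins that complex to actin, and p120-catenin (Ctnnd1) binds closer to the membrane and slows removal of the cadherin from the surface. β-catenin thus serves in the junction as well as in Wnt signaling, and fibroblasts typically carry N-cadherin (Cdh2) and cadherin-11 (Cdh11), whereas E-cadherin (Cdh1) is typical of epithelia.

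The libraries held between 35980831 and 42834467 fragments, the shallowest being Control replicate 0. Axin2, a direct target of β-catenin, had 0.136 to 0.177 FPKM (fragments scaled by transcript length and library size) in the controls and 14.4 to 19.2 in GOF, a log2 fold change of 6.98 ± 0.26 (SE; adjusted p = 4.95e-05, edgeR). Ctnnb1 itself was at 267 ± 16.3 FPKM (SD, n = 3) in control and 263 ± 28.8 in GOF, a log2 fold change of -0.05 ± 0.15 (SE; adjusted p = 0.844), and the value of the whole gene does not show whether exon 3 was removed. Of 10 fibroblast markers, 9 reached 1 FPKM and Postn could not be estimated; their summed level was 3029 to 3872 in control and 2495 to 3031 in GOF, and Col1a2 and Dcn fell. None of 12 keratinocyte markers reached 1 FPKM in any library (summed 0.499 to 0.817 in control and 0.677 to 0.718 in GOF, with Dsg3 at 0). Schwann and melanocyte markers summed to 11.4 to 14.5 FPKM in control and 6.23 to 11.1 in GOF. Of these 10, 4 reached 1 FPKM in at least 1 library of either group, and Mlana fell in GOF. Skeletal muscle markers summed to 23.3 to 27.6 FPKM in control and 138 to 173 in GOF, where Acta1 rose. Of these 8, only Acta1 and Des reached 1 FPKM in at least 1 library of either group, and Pax7 was listed at 0. In bulk RNA, a change in the number of cells of a type and a change in the RNA per cell cannot be told apart.

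Cdh13 rose and Cdh3 fell in GOF fibroblasts, and the other tested cadherins and catenins passed no call. A gene was called when its adjusted p was under 0.05 and its fold change over 2. By this rule 1 of the 9 tested genes was higher, against 6.69% of all tested genes, and 1 was lower, against 5.64% (12.3% in either direction). The median log2 fold change of the 9 was 0.46, and that of all tested genes -0.02. In FPKM, the 3 GOF libraries lay wholly above the 3 controls for 6 of the 9 genes and wholly below them for 1, where 20.3% and 19.2% of all tested genes did so.

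**Figure D1:**
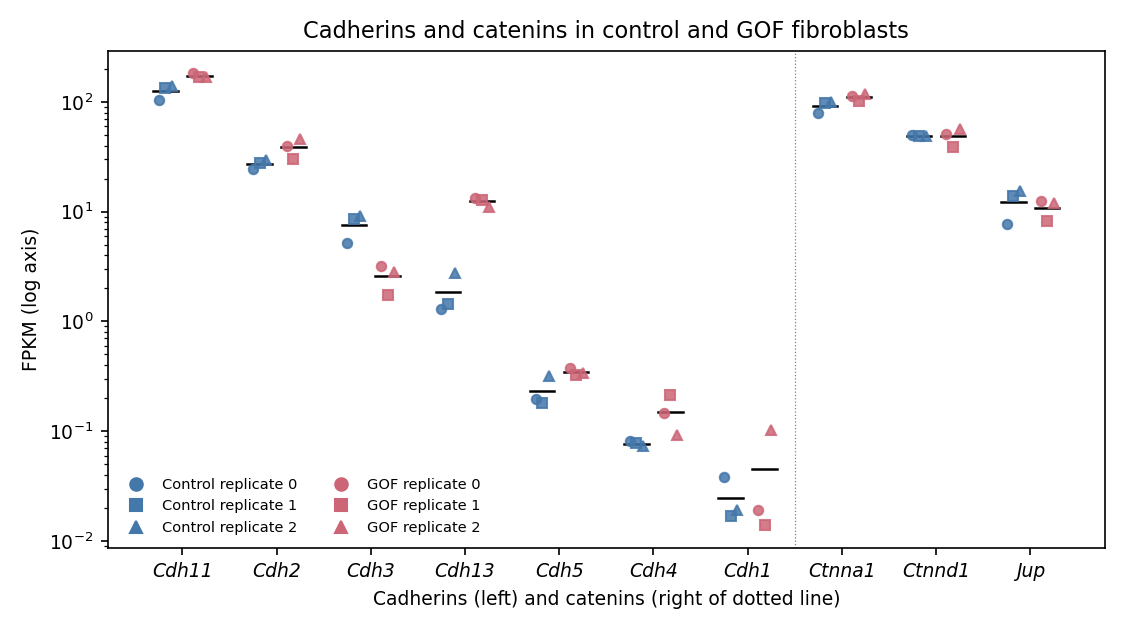
FPKM (log axis) of each cadherin and catenin in every library, blue for control and red for GOF, with the marker shape giving the replicate number and the black line the group mean. Cdh13 moves from 1.31 to 2.76 FPKM in the controls to 11.1 to 13.3 in GOF, Cdh3 moves the other way, and Cdh11 stays the highest cadherin in every library.

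Cdh13 encodes T-cadherin, which is held to the membrane by a lipid anchor, lacks the tail that binds catenins and is a receptor for adiponectin and low-density lipoprotein. The gene (ENSMUSG00000031841, plus strand) spans 1041 kb at chr8:118283733-119324921 of mm10, and no other annotated gene shares its exons. Its FPKM was 1.31, 1.45 and 2.76 in Control replicates 0, 1 and 2 and 13.3, 12.7 and 11.1 in GOF replicates 0, 1 and 2, from 180 to 510 fragments in the controls and 1944 to 2560 in GOF. Every GOF library was above every control, and the spread within GOF was small beside the difference. Mean FPKM was 1.84 ± 0.802 in control and 12.4 ± 1.12 in GOF (SD, n = 3 per group), and the fit of the fragments gave a 6.72-fold rise (log2 fold change 2.75 ± 0.31 SE, adjusted p = 0.00137). The two-sided exact permutation p on FPKM was 0.1, the smallest that 3 against 3 libraries allow. Within the animals that gave a culture to each group, the log2 ratio of GOF to control FPKM was 2.26 in one and 3.08 in the other. Endothelial cells also express Cdh13, and the 10 endothelial markers summed to 9.82 to 11.4 FPKM in control and 11.6 to 12.9 in GOF, with Kdr and Esam higher, Tek lower and Pecam1, Tie1, Cldn5, Vwf and Erg under 1 FPKM in every library. Their part in the result was not tested.

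Cdh3 encodes P-cadherin, a classical cadherin of basal keratinocytes and of the hair follicle placode, here present in cultures with almost no keratinocyte marker RNA. It lies at chr8:106510891-106557297 on the plus strand, 46.1 kb before Cdh1. Its FPKM was 5.18, 8.49 and 9.07 in Control replicates 0, 1 and 2 and 3.17, 1.73 and 2.82 in GOF replicates 0, 1 and 2. All GOF libraries were below all controls, and the narrowest gap was between Control replicate 0 and GOF replicate 0. The mean fell from 7.58 ± 2.1 to 2.57 ± 0.751 FPKM (SD, n = 3 each), 3.02-fold lower in the fit (log2 fold change -1.59 ± 0.29 SE, adjusted p = 0.00848, exact permutation p on FPKM = 0.1). Within the shared animals the log2 FPKM ratio was -1.52 and -0.88. When the fit asked whether the fall exceeded a fold change of 2, the adjusted p was 0.16, so a fall beyond that size was not shown. The Schwann and melanocyte markers also summed lower in GOF (6.23 to 11.1 FPKM) than in control (11.4 to 14.5). Of the 8 tested, 1 (Mlana) was called lower, against 5.64% of all tested genes. The part of these markers in the Cdh3 values was not tested.

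The neighbour Cdh1 (chr8:106603351-106670246), which encodes E-cadherin, was near the limit of detection in both groups. It had 3 to 5 fragments in every library (0.0139 to 0.102 FPKM) and did not enter the test, and a difference was not detectable at this depth.

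**Figure D2:**
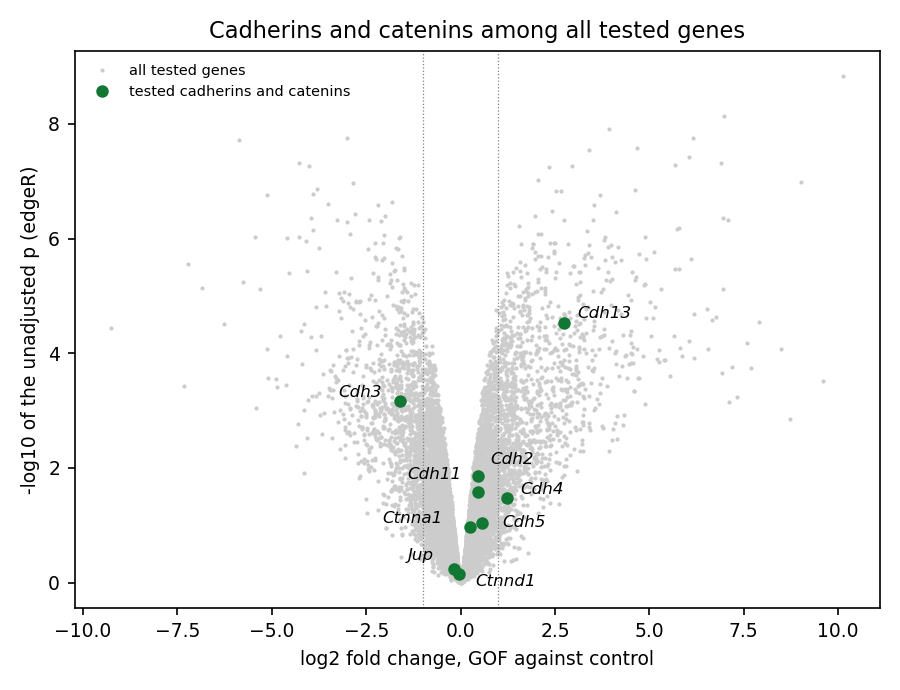
Log2 fold change of GOF against control (horizontal) and -log10 of the unadjusted edgeR p (vertical) for all 15462 tested genes in grey and the 9 tested cadherins and catenins in green; dotted lines mark a fold change of 2. Cdh13 (2.75) and Cdh3 (-1.59) stand away from the centre, Cdh4 (1.24) lies beyond the fold change but at a larger p, and the other 6 lie within it.

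Cdh11 and Cdh2, the fibroblast cadherins, had GOF values wholly above the control values, by less than the fold change set for a call. Cdh11 (chr8:102632095-102785642) encodes a mesenchymal cadherin with roles in skin fibrosis and was the most abundant of all 10 genes. Its FPKM was 103, 134 and 141 in the controls and 182, 169 and 169 in GOF, for a mean of 126 ± 20.4 and 173 ± 7.36 (SD, n = 3 each). The log2 fold change was 0.46 ± 0.17 (SE; adjusted p = 0.0924), and without Control replicate 0, the lowest library, it was 0.32 with an adjusted p of 0.12. Cdh2, on chromosome 18, encodes N-cadherin and was at 24.3, 28.0 and 29.8 FPKM in the controls and 39.9, 30.0 and 46.0 in GOF. GOF replicate 1 lay next to Control replicate 2, and the other GOF libraries stood well above. The log2 fold change was 0.46 ± 0.15 (SE; adjusted p = 0.0601), and with the animal as a block it was 0.61 (adjusted p = 0.0288), still under the fold change for a call.

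Cdh4 and Cdh5 were present in traces. Cdh4, the retinal R-cadherin on chromosome 2, had 10, 18 and 22 fragments in the controls and 44, 57 and 19 in GOF. In FPKM these were 0.0727 to 0.0808 and 0.0926 to 0.213, so the groups did not overlap. TMM-scaled CPM are fragments scaled by library size and a TMM factor per library, not by transcript length. On that scale GOF replicate 2 (0.47) fell among the controls (0.292 to 0.542). The log2 fold change was 1.24 ± 0.48 (SE; adjusted p = 0.109), and without GOF replicate 2 it was 1.58 with an adjusted p of 0.0336, which is a call. Cdh5, the VE-cadherin of endothelial cells (chr8:104101625-104144511), was at 0.179 to 0.319 FPKM in the controls and 0.323 to 0.378 in GOF, from 35 to 78 fragments, with a log2 fold change of 0.56 ± 0.29 (SE; adjusted p = 0.215). The endothelial marker sums given beside Cdh13 moved in the same direction.

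The summed mRNA of the 7 cadherins, most of it Cdh11, was higher in each GOF library than in the controls. Within these 7, the make-up differed at Cdh3 and Cdh13. Other cadherins, such as Cdh8, were not part of the sum. FPKM is scaled by transcript length, so levels of different genes can be added. The 7 cadherins summed to 134, 172 and 183 FPKM in the controls and 238, 214 and 230 in GOF (163 ± 25.9 against 227 ± 12.6, SD, n = 3 each). Cdh11 held 77.2 ± 0.554% of this sum in control and 76.3 ± 2.66% in GOF, and Cdh2 held 16.9 ± 1.11% and 16.9 ± 3.02%. The share of Cdh3 was 4.58 ± 0.621% in control and 1.12 ± 0.276% in GOF, whereas that of Cdh13 was 1.11 ± 0.352% and 5.45 ± 0.558%. The level of Cdh13 over that of Cdh3 was 0.253, 0.17 and 0.305 in the controls and 4.19, 7.35 and 3.95 in GOF, so their order was turned in every library.

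**Figure D3:**
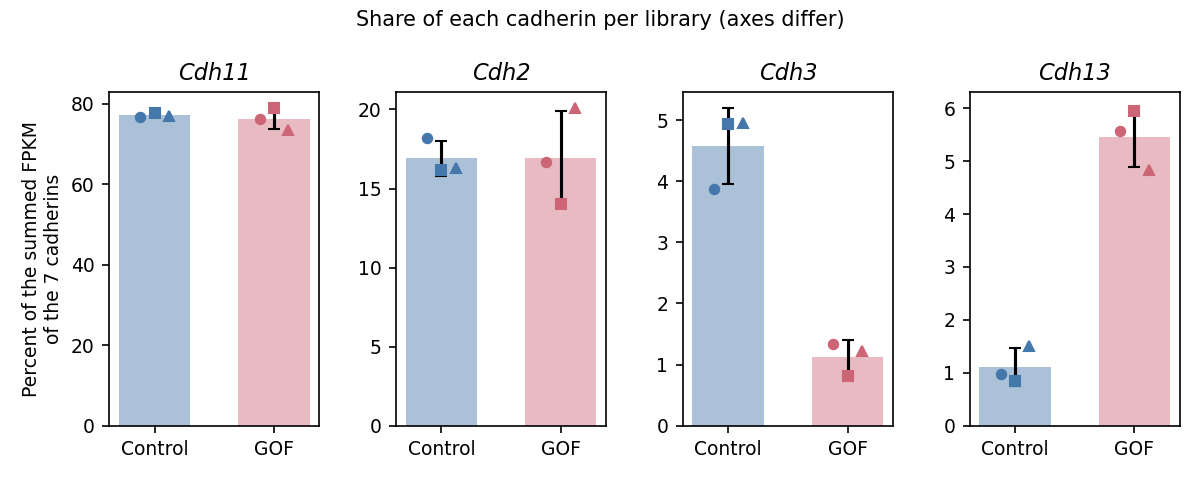
Percent of the summed FPKM of the 7 cadherins held by Cdh11, Cdh2, Cdh3 and Cdh13 (bars, mean; error bars, SD, n = 3; points, libraries, with the shape giving the replicate number; vertical axes differ between panels). Cdh11 and Cdh2 hold 77.2% and 16.9% in control and 76.3% and 16.9% in GOF, while Cdh3 goes from 4.58% to 1.12% and Cdh13 from 1.11% to 5.45%.

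Ordered by mean FPKM, the controls ran Cdh11, Ctnna1, Ctnnd1, Cdh2, Jup, Cdh3, Cdh13, Cdh5, Cdh4 and Cdh1, and only the ranges of the neighbours Jup and Cdh3 overlapped. In GOF, Cdh13 moved above Jup and Cdh3, and the rest kept their order. There the ranges overlapped for Ctnnd1 with Cdh2, for Cdh13 with Jup, and for Cdh4 with Cdh1.

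The catenin partners passed no call. Ctnna1, on chromosome 18, was at 79.6, 97.0 and 99.9 FPKM in the controls and 114, 101 and 118 in GOF. The groups did not overlap, though GOF replicate 1 was close to the upper controls, and the log2 fold change was 0.24 ± 0.13 (SE; adjusted p = 0.24). Lrrtm2, on the opposite strand, shares 1.48% of its exonic bases. Ctnnd1, on chromosome 2, was at 49.1 to 49.5 FPKM in the controls and at 50.8, 38.5 and 56.4 in GOF, a log2 fold change of -0.06 ± 0.14 (SE; adjusted p = 0.816). An overlapping annotated gene on the same strand, Gm28635, shares 61.2% of its exonic bases and is listed at 0 in every library. Jup, on chromosome 11, was at 7.66, 13.8 and 15.5 FPKM in the controls and 12.6, 8.17 and 12.1 in GOF, with overlapping groups and a log2 fold change of -0.18 ± 0.31 (SE; adjusted p = 0.714). The direction of Ctnnd1 and Jup was set by GOF replicate 1: without it the log2 fold changes were 0.07 and 0.05, and with the animal as a block 0.09 and 0.25. The level of Ctnna1 over that of Ctnnd1 was 1.61, 1.97 and 2.03 in the controls and 2.24, 2.62 and 2.1 in GOF. Ctnnb1, the other catenin that binds the cadherin tail, exceeded Jup by 16.4 to 34.1 times in the controls and 19.6 to 36.3 times in GOF.

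Among 99 further junction genes in 6 lists, 77 were tested, and 12 were called higher and 3 lower in GOF, where 6.69% of all tested genes were called higher and 5.64% lower. With lists this small, a count of 1 or 2 is not set apart from these shares, and the lists are described by their counts and medians alone. The filter keeps a gene with enough fragments in either group alone. Some genes very low in the controls, such as Ctnnd2, were thus tested through their GOF values, and the counts and medians include them. The other cadherins were mostly low: 9 of 16 were tested, 1 rose and 1 fell (against 6.69% and 5.64% of all tested genes), and their median log2 fold change was -0.04. Cdh8, a neural cadherin, fell from 3.03 ± 0.962 to 0.446 ± 0.214 FPKM (log2 fold change -2.89 ± 0.40 SE, adjusted p = 0.00293), with 2.19 to 4.08 in the controls and 0.214 to 0.636 in GOF. Cdh6 rose from 8 to 23 fragments per control to 29 to 60 per GOF library (1.72 ± 0.47 SE, adjusted p = 0.0377), a call that was lost in 9 of 15 alternatives, the block by animal among them (1.30, adjusted p = 0.0635). Cdh7 was listed at 0.

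Both neural catenins were called. Of 10 other catenins and plakophilins, 8 were tested, and 1 rose and 1 fell (against 6.69% and 5.64% of all tested genes), with a median log2 fold change of -0.26. Ctnnd2, the δ-catenin of neurons and a relative of p120-catenin, was at 0.0388, 0.0651 and 0.0215 FPKM in the controls and 1.72, 0.886 and 1.23 in GOF (log2 fold change 4.86 ± 0.45 SE, adjusted p = 6.05e-04). It had 5 to 16 fragments per control and 195 to 398 per GOF library, so the size of its rise rests on few control fragments. Ctnna2, the neural α-catenin, was at 5.4, 5.39 and 6.1 FPKM in the controls and 1.08, 0.542 and 1.63 in GOF (-2.31 ± 0.33 SE, adjusted p = 0.00341). Both differences were far larger than the spread within a group. Against Ctnna1 and Ctnnd1, either gene was still the minor form in both groups.

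Of 18 nectins and actin linkers, all tested, 2 rose and none fell (against 6.69% and 5.64% of all tested genes), with a median log2 fold change of 0.48. Among them, Shroom3, which drives apical constriction, was at 0.148 to 0.17 FPKM in control and 0.78 to 1 in GOF (log2 fold change 1.59 ± 0.30 SE, adjusted p = 0.0101). FPKM and fragments differed here: GOF replicates 0 and 1 had 161 and 83 fragments at 0.802 and 0.78 FPKM. The call of Shroom3 was lost with limma on log2(FPKM + 1) and in the test against a fold change of 2. Of 11 desmosomal genes, 6 were tested and 2 rose (against 6.69% of all tested genes), with a median of 1.33. Dsp, which encodes the desmoplakin that links desmosomes to intermediate filaments and binds plakoglobin, went from 0.0754, 0.0768 and 0.0811 FPKM in the controls to 4.04, 2.39 and 6.36 in GOF (5.74 ± 0.39 SE, adjusted p = 2.32e-04). Perp, a desmosome-associated p53 target, went from 1.34 to 2.87 FPKM to 9.33 to 32.5 (3.14 ± 0.52 SE, adjusted p = 0.00574). The desmosomal cadherins Dsg1b, Dsg2 and Dsg3 were listed at 0 in every library. Dsc2, another desmosomal cadherin, was at a mean of 0.552 FPKM in control and 0.684 in GOF (0.33 ± 0.27 SE, adjusted p = 0.426). Dsc3 was at 0.0218 and 0.0578 FPKM (1.42 ± 0.78 SE, adjusted p = 0.24), and neither was called. The keratinocyte markers stayed under 1 FPKM.

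Of 24 protocadherins and Fat, Dchs, Celsr and calsyntenin genes, 23 were in the table, 18 were tested, 4 rose and 1 fell (against 6.69% and 5.64% of all tested genes), with a median of 0.22. Pcdh17 (2.47 ± 0.50 SE, adjusted p = 0.0122), Pcdh10 (1.57 ± 0.35, adjusted p = 0.0183) and Clstn2 (1.13 ± 0.27, adjusted p = 0.0252) rose from means of 0.0701, 0.217 and 0.118 FPKM, and Fat2, also called, was lower still in the controls, at 0.00914 FPKM. The call of Clstn2 was lost in 9 of 15 alternatives, 5 of the 6 that leave out a library among them. Pcdh9 fell from 5.97, 11.1 and 10.7 FPKM to 4.74, 4.25 and 2.69 (-1.25 ± 0.31 SE, adjusted p = 0.0269), and this call was lost in 8 of 16 alternatives. Of 20 regulators of cadherin transcription, cleavage and turnover, 18 were tested, 2 were called higher and none lower (against 6.69% and 5.64% of all tested genes), with a median of 0.16. Tcf3 was lower by just under the fold change for a call, with means of 21.7 FPKM in control and 11.3 in GOF (-0.98 ± 0.20 SE, adjusted p = 0.0123). Ptprk, a phosphatase that acts on catenins, went from 3.49 to 6.53 FPKM to 13.2 to 14.6 (1.41 ± 0.22 SE, adjusted p = 0.00469), and Twist1, a mesenchymal transcription factor, from 29.5 to 32.5 FPKM to 53.5 to 79.4 (1.04 ± 0.14 SE, adjusted p = 0.00252). Twist1 was close to the fold change for a call, and its call was lost with the animal as a block (0.96, adjusted p = 0.00476) and in 4 other alternatives.

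Of the 7 cadherins, 5 lie on chromosome 8, as do Cdh8 (chr8:99024471-99416471), Cdh15 and Cdh16 of the other cadherins. Among these, Cdh13 rose, Cdh3 and Cdh8 fell, Cdh11 and Cdh5 were not called, and Cdh1, Cdh15 and Cdh16 were not tested. Over the 6 libraries the genes with the profile most like Cdh13, by Pearson r on log2(FPKM + 0.1), were Ahrr (r = 0.9968) and Fhod3 (r = 0.9966), both called higher in GOF (adjusted p = 4.95e-05 and 8.45e-04). All points share the same libraries and the same pair of groups, and 451 of 12017 genes compared (3.75%) had r of at least 0.95. RefSeq promoter windows on GRCm38 were matched for Ctnnd1 and Jup, and neither held the Tcf/Lef motifs CTTTGAT and CTTTGAA or the E-box CAGGTG on either strand; 3.73%, 5.14% and 20.2% of 32851 windows did.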

How the data were processed

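Stranded libraries were sequenced from both ends by the authors, who aligned reads with TopHat (mm10) and quantified them with Cuffdiff; versions and annotation are not given in the sources used here. The estimated counts are the fragments per gene and library that the authors deposited without scaling, and the FPKM values are the authors' own, scaled by length and between libraries. A further 6 columns of per-library values and the lncRNA table were not used. Estimated counts (4.95% not whole) were rounded, 32 genes with a failed estimate were left out, and identifiers were matched to GENCODE M21 (97.9%). The counts were tested in R 4.3.3 with edgeR 4.0.16 (TMM, filterByExpr, quasi-likelihood test, Benjamini-Hochberg adjustment over all tested genes). Single genes were also compared on FPKM with a two-sided exact permutation test (SciPy 1.17.1).

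Alternatives were DESeq2 1.42.0, other normalizations and filters, limma 3.58.1 on log2(FPKM + 1) and log2(FPKM + 0.1), a fit requiring more than a fold change of 2, blocks for animals or label numbers, and omission of each library in turn. Cultures with the same animal number, as read from the sample titles, deviated together (r = 0.42 and 0.51). That number pairs 2 of the 3 cultures of each group. Replicates of a group differed beyond sampling noise (chi-square per degree of freedom 24.2 to 184.3). The test was checked on simulated data. The genes and lists were chosen with earlier results of these data known. Named were all 10 genes, Ctnnb1 and Axin2, up to 3 called genes per list and direction with the smallest adjusted p, and the 3 profiles nearest to Cdh13; exceptions are stated, and some genes chosen by this rule are not reported here.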

Additional observations from a re-analysis of the deposited data

How the results depend on the processing

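Cdh13 was called in all 16 alternatives (log2 fold change 2.27 to 3.15). Cdh3 was called in all but the test against a fold change of 2 (-1.82 to -1.20), which left 1 of the cadherins and catenins called, 0 of them lower. Without GOF replicate 2, Cdh4 joined the calls, so that 1 to 2 were called higher with a library left out. The directions of Ctnnd1 (0.09 and 0.07) and Jup (0.25 and 0.05) turned with the block by animal and without GOF replicate 1, and that of Ctnnb1 turned without GOF replicate 0 (0.02); with a library left out they ran from -0.15 to 0.07, -0.44 to 0.05 and -0.16 to 0.02. Of all tested genes, 1906 were called, 742 with limma on log2(FPKM + 1) and 618 in the test against a fold change of 2. Of the other junction genes, 15 were called, 8 with an FPKM minimum of 1 in 3 libraries, 8 and 9 with limma on log2(FPKM + 1) and log2(FPKM + 0.1), and 5 in the test against a fold change of 2; of these 5, 6, 7 and 3 were higher, against 12, and with a library left out 2 to 5 were lower (5 without GOF replicate 2). The cause was not tested, except that the filter and the stricter test admit fewer genes by construction. With the replicate block by label number, whose samples did not deviate together (r = -0.46, 0.03 and -0.47), 1421 genes were called, and with that by animal 2008; neither block changed the count of 2 among the cadherins and catenins. Twist1 lost its call in 5 alternatives (the block by animal among them), Pcdh10 in 4 and Pcdh17 in 3, and Clstn2 in 9. The choice of FPKM or TMM-scaled fragments, added after seeing the data, gave 6 or 5 genes with GOF above control. Counting limits Cdh1, Cdh4 and Cdh5 most.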
